A study of Mus musculus with 2 samples.

Results

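The cytosolic ribosomal proteins were followed in long-read RNA sequencing of gastrocnemius, the mostly fast-twitch calf muscle. Members were the protein-coding genes of the annotation whose names follow the pattern of large (Rpl, Rplp) or small (Rps, Rpsa) subunit proteins, without the Rps6k kinases. The rule uses names only, and it took 84 of 55536 annotated genes, 52 of the large and 32 of the small subunit. Reads came from 82 of them in both libraries, and all 82 had 10 or more reads over both. The other two, Rpl10l and Rpl39l, had 0 reads. A further 6 matching names were not protein-coding in the annotation and stayed outside.

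The samples form 1 group: gastrocnemius of female B6CASTF1/J mice, F1 hybrids between C57BL/6J and CAST/EiJ parents, aged 25 days, with no treatment named. It holds 2 biological replicates of 2 µg of total RNA each, which the labels number as separate tissue samples under 1 donor record. No contrast between conditions exists. Replicate 2 held 1557594 mouse reads after removal of ERCC spike-ins and replicate 1 held 1069771. Levels are in CPM, reads per 1000000 mouse reads, and 0 reads, taken as a limit of 3 reads, allows a level of up to 1.93 CPM in replicate 2 and 2.80 CPM in replicate 1. Fisher's exact tests below therefore compare 2 libraries, not conditions. Intervals are exact Clopper-Pearson 95% intervals, and intervals and limits cover counting error only. CPM was not divided by transcript length, on the assumption that each long read stands for 1 transcript molecule.

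Each ribosome holds 1 copy of nearly every ribosomal protein, and the acidic stalk proteins are held in several copies. The small subunit decodes the mRNA and the large subunit forms peptide bonds. Ribosomal protein mRNAs are short, and in mammals they begin with a terminal oligopyrimidine (TOP) tract through which growth signalling tunes their translation. Their genes have left many processed pseudogenes in mammalian genomes, and a few have active second copies, such as Rpl3l, a form known from skeletal and heart muscle.

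Members took 1.80% (1.77 to 1.82) of the mouse reads in replicate 2 and 0.882% (0.864 to 0.900) in replicate 1, a mean of 1.34% ± 0.646 (SD, n = 2). The intervals lie apart, so the libraries differed by more than counting error. The 10 most read members supplied 41.9% of the members' reads in replicate 2 and 38.5% in replicate 1. The small subunit supplied 30.3% of these reads in replicate 2 and 30.9% in replicate 1, 30.6% ± 0.420 (SD, n = 2).

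Rplp0 (chromosome 5, 115559467 to 115563727, plus strand), the base of the stalk that recruits elongation factors, had 1134 reads (728 CPM) in replicate 2 and 573 reads (536 CPM) in replicate 1. Its stalk partners were read less often: Rplp1 had 289 CPM in replicate 2 and 142 CPM in replicate 1, and Rplp2 had 204 CPM in replicate 2 and 119 CPM in replicate 1. The mean CPM of Rplp0, 632 ± 136 (SD, n = 2), stood above those of Rplp1, 215 ± 104, and Rplp2, 161 ± 60.4, and in each library Rplp0 was above both.

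Rpl41, a very short protein at the interface of the subunits, had 760 CPM in replicate 2 and 312 CPM in replicate 1. Rpl35 of the exit tunnel's rim had 674 CPM in replicate 2 and 339 CPM in replicate 1. Rpl4, whose loop lines the tunnel, had 417 CPM in replicate 2 and 316 CPM in replicate 1. The muscle form Rpl3l had 392 CPM in replicate 2 and 338 CPM in replicate 1, and its mean of 365 ± 37.6 (SD, n = 2) did not differ from that of Rpl4, 367 ± 71.7, beyond the spread. Rpl5, a carrier of 5S rRNA, had 482 CPM in replicate 2 and 157 CPM in replicate 1. Rpl13 had 382 CPM in replicate 2 and 224 CPM in replicate 1. Replicate 2 was above replicate 1 for each of these genes, and the order of Rplp0 and Rpl41 was reversed between the libraries.

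Among the small subunit genes Rps14, a protein of the subunit's platform, led with 833 reads (535 CPM) in replicate 2 and 197 reads (184 CPM) in replicate 1. Rps29 had 307 CPM in replicate 2 and 123 CPM in replicate 1. Rps27 had 257 CPM in replicate 2 and 115 CPM in replicate 1, and Rps28 had 269 CPM in replicate 2 and 100 CPM in replicate 1. The X-linked Rps4x had 213 CPM in replicate 2 and 131 CPM in replicate 1. Rps26 had 230 CPM in replicate 2 and 104 CPM in replicate 1, and Rps16 had 216 CPM in replicate 2 and 117 CPM in replicate 1, so this pair differed by less than the libraries did. The median of the mean CPM was 123 in the large and 123 in the small subunit genes. The means of the small subunit genes ranged from 11.2 to 359 CPM.

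**Figure D1:**
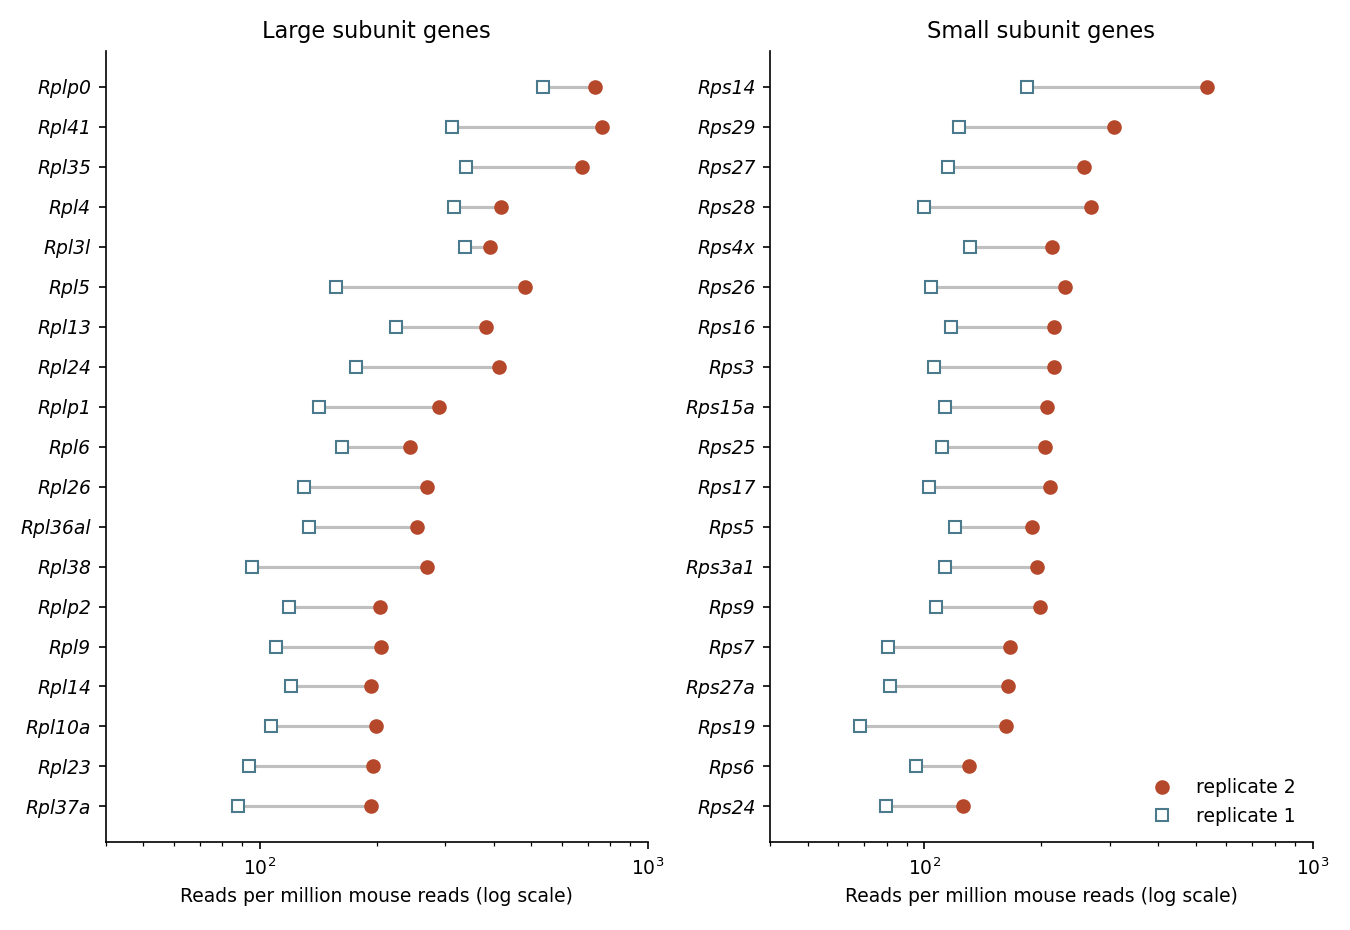
CPM (log axis) of large and small subunit genes with high levels, ordered by their mean, with filled circles for replicate 2, open squares for replicate 1 and a grey line joining them. Every gene drawn lies higher in replicate 2, and the distance is small for Rpl3l, at 392 CPM in replicate 2 and 338 CPM in replicate 1.

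The least read members with any reads, named after their values were seen, were Rpl17, with 7 reads in replicate 2 and 3 in replicate 1, and Rpl10, with 10 reads in replicate 2 and 2 in replicate 1. Rpl17 sits at the tunnel exit and Rpl10 joins the large subunit last, near the peptidyl transferase centre, so both are single-copy parts of the ribosome. For several such genes most matching reads were assigned elsewhere. Leading transcripts of the members were compared with annotated pseudogenes, and 1079 pseudogenes matched with 90% or more identity over 200 or more bases. Of these, 158 had reads, 4731 in replicate 2 and 1722 in replicate 1. They made up 14.5% of the members' and matching pseudogenes' reads together in replicate 2 and 15.4% in replicate 1. Single-exon models held 99.8% of the pseudogene reads in replicate 2 and 99.7% in replicate 1. At such identity a read of the gene and a read of its copy may not be told apart, and how the authors' aligner placed them was not tested.

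The split was uneven over the members. Rpl17 had 106 pseudogene reads in replicate 2 and 54 in replicate 1, so copies held 93.8% of its matching reads in replicate 2 and 94.7% in replicate 1. Rpl21 had 388 pseudogene reads against 31 reads of its own in replicate 2, and 150 against 17 in replicate 1. Rpl35a had 325 against 39 in replicate 2 and 90 against 12 in replicate 1. For Rpl21 the most read copy, Gm13370, matched over 483 bases at 99.6% identity. In all, 12 members had more pseudogene reads than reads of their own over both libraries, and the rest of these were Rps2, Rps6, Rps19, Rps13, Rpl7a, Rpl27, Rpl30, Rpl31 and Rpl37.

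Rpl5 had the largest number of such reads: Gm15500, identical over the 894 aligned bases, held 501 reads in replicate 2 and 120 in replicate 1. With the copies added Rpl5 stood at 804 CPM in replicate 2 and 269 CPM in replicate 1. Rpl10 remained low with its copies added, at 11 reads in replicate 2 and 2 in replicate 1. With all copies added, a calculation chosen after seeing the data, the members' share of mouse reads was 2.10% in replicate 2 and 1.04% in replicate 1. Levels of single members in this text are those of the gene's own reads unless the copies are named.

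**Figure D2:**
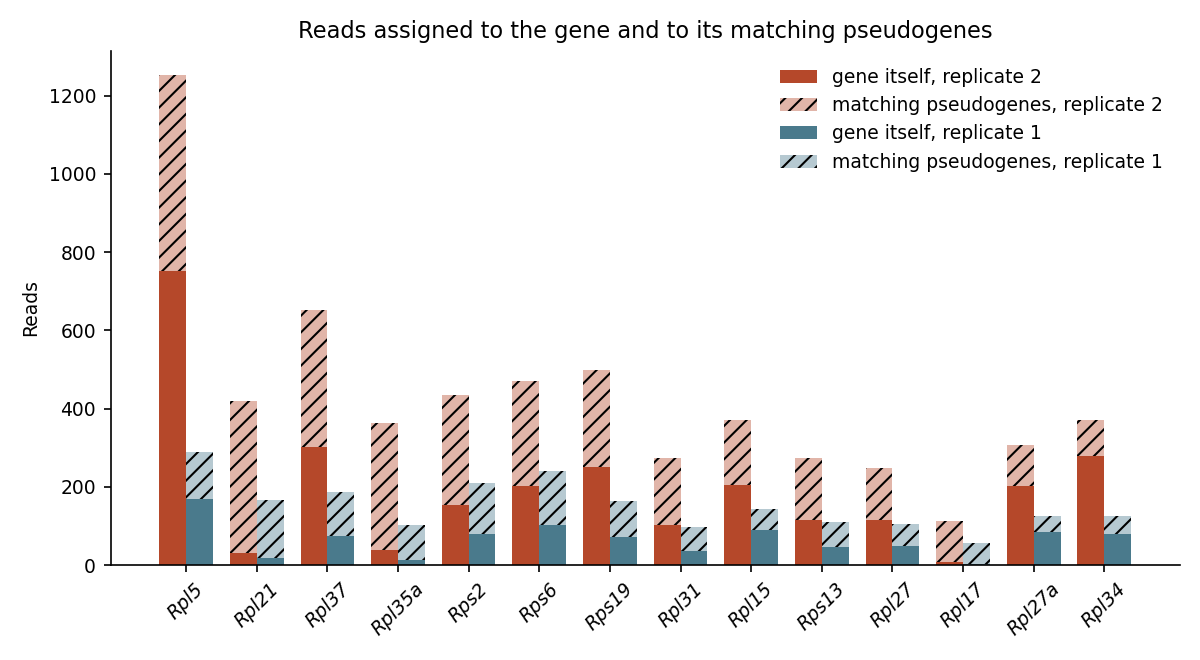
Reads assigned to each gene itself (solid) and to its matching annotated pseudogenes (hatched, stacked above) for the 14 members with the most pseudogene reads, replicate 2 on the left and replicate 1 on the right of each pair of bars. The solid part is a small share for Rpl21, Rpl35a and Rpl17 in both libraries.

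Active second copies were set against their partners in each pair. Rpl3 helps shape the peptidyl transferase centre, and in gastrocnemius Rpl3l (ENSMUSG00000002500.15, chromosome 17, 24723945 to 24736143, plus strand) supplied most of the pair's reads. Rpl3l had 610 reads and Rpl3 had 152 in replicate 2, and Rpl3l had 362 and Rpl3 had 85 in replicate 1. Rpl3l was thus 80.1% (77.0 to 82.8) of the pair in replicate 2 and 81.0% (77.0 to 84.5) in replicate 1, 80.5% ± 0.659 (SD, n = 2). The intervals overlapped, with an adjusted p of 1.00 over 8 pairs by Fisher's exact test, two-sided. Copies of Rpl3 lowered the share: with their 75 reads in replicate 2 and 48 in replicate 1 counted as Rpl3, Rpl3l held 72.9% in replicate 2 and 73.1% in replicate 1.

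The coding sequences of Rpl3-201 and Rpl3l-202 were identical at 896 of 1205 aligned positions, or 74.4%, so reads of the pair carry 309 differences by which they can be separated. Their first 90 coding bases are shown because both begin with a first coding exon that holds the start codon alone, and capitals mark the 21 positions that differ. Bases are of GRCm38, from chr15:80082496-80083326 on the minus strand for Rpl3 and chr17:24727884-24728403 on the plus strand for Rpl3l, with the first intron left out.
Rpl3: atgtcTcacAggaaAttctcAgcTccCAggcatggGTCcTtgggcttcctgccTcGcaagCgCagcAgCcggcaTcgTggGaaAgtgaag
Rpl3l: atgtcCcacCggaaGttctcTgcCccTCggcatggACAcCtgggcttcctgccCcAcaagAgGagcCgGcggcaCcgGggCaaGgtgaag

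Rpl36al, a gene with 2 exons, supplied more reads than the X-linked Rpl36a with 5 exons. It held 75.9% (72.0 to 79.5) of 522 reads in replicate 2, that is 396 reads beside 126 of Rpl36a. In replicate 1 it held 77.7% (71.0 to 83.5), with 143 reads beside 41 of Rpl36a. With the reads of matching pseudogenes added to both genes, Rpl36al held 70.9% in replicate 2 and 75.5% in replicate 1. The coding sequences were 87.7% identical, with 39 differences over 318 bases and no gap. The first 90 coding bases of this closest pair with reads from both genes are shown with 14 differing positions in capitals, from chrX:134585717-134586164 on the plus strand (first intron left out) for Rpl36a and chr12:69183047-69183136 on the minus strand for Rpl36al (GRCm38).
Rpl36a: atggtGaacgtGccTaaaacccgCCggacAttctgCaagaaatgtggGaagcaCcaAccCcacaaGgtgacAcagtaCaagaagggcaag
Rpl36al: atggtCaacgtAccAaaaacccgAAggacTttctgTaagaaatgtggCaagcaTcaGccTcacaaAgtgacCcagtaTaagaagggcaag

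Rpl22l1 held 58.9% (52.5 to 65.1) of the reads of its pair with Rpl22 in replicate 2 and 57.0% (46.7 to 66.9) in replicate 1. Rps27l, which p53 is known to induce, held 31.7% (28.0 to 35.7) of its pair in replicate 2 and 37.6% (30.8 to 44.7) in replicate 1, with an adjusted p of 0.552 by the same exact test. The pair of Rpl7 and Rpl7l1 was the exception. Rpl7l1, whose human counterpart acts in large subunit assembly, had 48 reads in replicate 2 and 46 in replicate 1, while Rpl7 had 269 reads in replicate 2 and 71 in replicate 1. Rpl7l1 was 15.1% (11.4 to 19.6) of the pair in replicate 2 and 39.3% (30.4 to 48.8) in replicate 1, a difference of -24.2 percentage points with an adjusted p of 1.56e-06 by Fisher's exact test. The coding identity of this pair was the lowest at 62.6%, and the annotated transcripts differ in length, with 2606 bases for Rpl7l1-201 and 1163 for Rpl7-201.

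Rpl39l and Rpl10l, known as testis-enriched copies, had 0 reads beside 362 reads of Rpl39 in replicate 2 and 48 in replicate 1, and 10 reads of Rpl10 in replicate 2 and 2 in replicate 1. The 0 reads allow Rpl39l a share of up to 1.01% of its pair in replicate 2 and 7.40% in replicate 1 by the exact interval. For Rpl10l the interval reached 30.8% in replicate 2 and 84.2% in replicate 1, so a share could not be set at this depth. Rps4l, a pseudogene in this annotation, had 2 reads in replicate 2 and 1 in replicate 1.

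**Figure D3:**
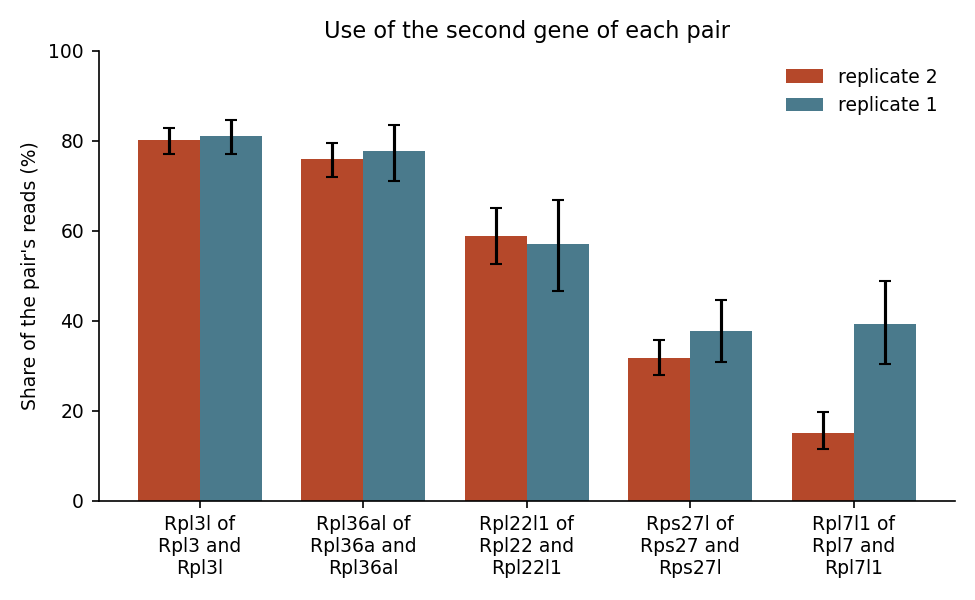
Share of a pair's reads (percent) held by the second gene in replicate 2 (left bar) and replicate 1 (right bar), with exact 95% intervals as error bars. The Rpl3l bars reach 80.1% in replicate 2 and 81.0% in replicate 1, and the Rpl7l1 intervals are the only ones drawn that do not overlap.

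Between the libraries, 69 of the 82 members tested were higher in replicate 2, 0 were lower and 13 did not pass, at an adjusted p under 0.05 over 8892 genes by Fisher's exact test, two-sided with Benjamini-Hochberg adjustment. Over all genes tested 11.1% were higher and 14.9% lower. The median log2 ratio of replicate 2 over replicate 1 was 0.89 for members (range -0.48 to 2.36, with 80 of 82 above 0) and -0.18 for all genes. TMM and DESeq2 factors shifted every ratio by 0.18, to a member median of 1.07. Large subunit genes had a median of 0.86 with 40 of 50 higher, and small subunit genes had 0.95 with 29 of 32 higher.

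Rpl39, which lines the exit tunnel, differed most, with 362 reads in replicate 2 against 48 in replicate 1 (log2 ratio 2.36, 95% interval 1.94 to 2.84, adjusted p = 2.13e-36 by the exact test). Rps12 had 29 reads in replicate 2 and 4 in replicate 1 (2.17, 95% interval 0.81 to 4.28). Rpl5, with 751 reads in replicate 2 and 168 in replicate 1, had 1.62. Most of these were of Rpl5-204, annotated as a retained intron, with 663 reads in replicate 2 and 137 in replicate 1. The coding Rpl5-201 had 65 reads in replicate 2 and 27 in replicate 1, so the ratio of Rpl5 is mainly that of Rpl5-204. Rps14 had 1.54. At the other end, Rpl7l1 (-0.48) and Rpl12, with 25 reads in replicate 2 and 18 in replicate 1 (-0.08), were the members below 0, and neither passed. Rpl3l (0.21, adjusted p = 0.0926 by the exact test), Rpl3 (0.29) and Rpsa (0.29) did not pass either, and Rpl3l passed with TMM factors (0.39).

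The ratio also followed transcript length, taken from each gene's most read complete model. Over genes, which are not independent replicates, Spearman's rho between length and log2 ratio was -0.47 in the 82 members and -0.50 in 8752 genes. The 12 members of up to 500 bases had a median log2 ratio of 1.20, and 176 other genes of that length had 0.99. The 23 members above 1000 bases had 0.75, against -0.30 in 7798 other genes. Of 595 other protein-coding genes with lengths in the members' middle range, 573 to 1041 bases, 40.5% were higher in replicate 2, with a median of 0.67.

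With the length trend over all genes removed, 18 of the 82 members were higher and 0 lower by an exact binomial test, and the member median was 0.25. Over all genes 7.50% were higher and 5.56% lower. The 595 other protein-coding genes of the members' middle lengths had 56 higher and 38 lower, with a median of 0.03. Rpl39 kept 1.53 and Rpl5 1.13 on this scale, while Rps12 had 1.31 and was no longer called higher. The length used for Rpl5 was that of Rpl5-204, 1024 bases. At an assumed dispersion of 0.04, edgeR's exact test called 5 members higher, with Rps14, Rpl5 and Rpl39 among them, and 0 lower. Rps12 was not among the 5. Over all genes 1.18% were higher and 1.07% lower. TMM factors gave 74 members higher, against 14.3% of all genes higher and 9.48% lower, and DESeq2 factors gave 74, against 14.3% higher and 9.60% lower. A minimum of 20 reads gave 71 of 80 members higher, against 14.5% of all genes higher and 19.0% lower. No minimum gave 65, against 5.67% higher and 7.44% lower. Complete chains gave 67 of 80 higher and Rpl7l1 lower, against 9.47% higher and 20.4% lower. With pseudogene reads added 73 members were higher, against 10.9% of all genes.

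**Figure D4:**
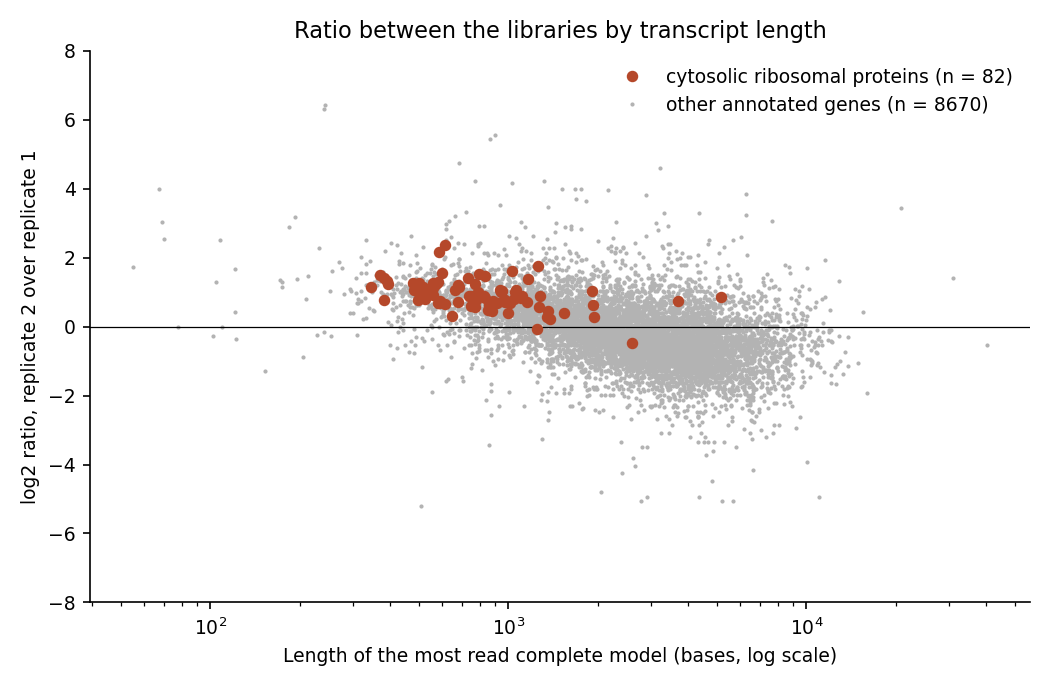
Log2 ratio of replicate 2 over replicate 1 (y axis) against the length in bases of the most read complete model (x axis, log scale) for 82 cytosolic ribosomal protein genes (large circles) and other annotated genes (small grey points). Members lie mostly above 0 at the short end of a cloud that falls with length, and Rpl7l1 and Rpl12 are the 2 members below 0.

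Genes that work with the ribosome were set beside the members. Among ribosomal proteins named outside the pattern, Fau had 103 CPM in replicate 2 and 62.6 CPM in replicate 1 (0.72) and was called higher. Rack1 had 55.9 CPM in replicate 2 and 41.1 CPM in replicate 1 and did not pass. Of 78 mitochondrial ribosomal protein genes 36 were higher and 0 lower, with a median of 0.55. Other TOP mRNAs, for translation factors and some other proteins, had 4 of 16 genes higher and 2 lower, with a median of 0.26. Among them Tpt1 was higher (565 CPM in replicate 2, 331 CPM in replicate 1), and the elongation factor Eef2 was lower (253 CPM in replicate 2, 332 CPM in replicate 1). Of 22 ribosome assembly genes tested 1 was higher and 2 were lower (median -0.27), and of 12 growth signalling genes tested 3 were higher and 5 lower (median -0.62). With the length trend removed the calls of Fau and Eef2 ended. TOP mRNAs then had 2 higher and 0 lower, and growth signalling genes 3 higher and 1 lower. Mitochondrial ribosomal protein genes had 23 of 78 higher and 1 lower, with a median of 0.24, close to the 0.25 of the members. The assembly and growth signalling lists hold longer transcripts, with medians of 2858 bases for assembly and 5658 bases for growth signalling, against 778 bases for the members.

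Summed cell type markers also differed between the 2 libraries. Summed CPM of 8 fast fibre markers was 241863 in replicate 2 and 327579 in replicate 1. The sum followed Atp2a1, at 56409 CPM in replicate 2 and 157924 CPM in replicate 1, and Myh4. These were the 2 lower calls, while the other 6 fast fibre markers were called higher and the list's median log2 ratio was 0.46. The 8 slow fibre markers summed to 8121 CPM in replicate 2 and 1056 in replicate 1. Tendon markers summed to 436 CPM in replicate 2 and 83.2 in replicate 1, blood markers to 415 CPM in replicate 2 and 1235 in replicate 1, and adipocyte markers to 89.2 CPM in replicate 2 and 392 in replicate 1. Fibroblast markers summed to 3295 CPM in replicate 2 and 5632 in replicate 1. This sum followed Col3a1, at 706 CPM in replicate 2 and 2665 CPM in replicate 1. Of the 6 fibroblast markers 3 were called lower and 2 did not pass. Dcn was called higher, at 363 CPM in replicate 2 and 205 CPM in replicate 1. Endothelial markers summed to 40.4 in replicate 2 and 77.6 in replicate 1, with 1 of 5 called lower. Macrophage and leukocyte markers summed to 67.4 in replicate 2 and 47.7 in replicate 1, with 1 of 3 tested called higher. Markers of proliferating and satellite cells summed to 1.93 in replicate 2 and 6.54 in replicate 1, and 0 of 4 had enough reads to be tested. In bulk tissue fewer cells of a type and less RNA per cell cannot be told apart, and the part of cell composition in the members' ratios was not tested.

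Most member reads matched annotated transcripts. Each model carries a class: Known, NIC (annotated splice sites in a new combination), NNC (a splice site outside the annotation), ISM (part of an annotated chain of introns) or Genomic. Known models held 77.9% of member reads in replicate 2 and 85.2% in replicate 1. ISM models held 20.4% in replicate 2 and 12.8% in replicate 1, NNC 1.12% in replicate 2 and 1.39% in replicate 1, and NIC 0.286% in replicate 2 and 0.318% in replicate 1. In the other protein-coding genes Known models held 70.7% in replicate 2 and 64.8% in replicate 1, and NNC models 2.58% in replicate 2 and 19.2% in replicate 1. ISM reads were unevenly spread over the members.

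Rpl39 differed between the libraries in its ISM reads. Single-exon ISM models, summed over the gene, held 220 of 362 reads (60.8%) in replicate 2 and 7 of 48 (14.6%) in replicate 1. The most read of them has 230 bases and begins at the first base of the last exon of Rpl39-201. With complete chains alone the log2 ratio of Rpl39 was 1.22, less than the 2.36 of all its reads. The first 15 bases of the 230-base model are in capitals below, after the 15 that precede them in the spliced transcript (chrX:37082735-37083999, minus strand, GRCm38).
Rpl39, 1-exon model: tggtaacaaaatcagGTACAACTCTAAGAG

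An intron of Rpl39 holds a small nucleolar RNA gene, Snora69. Of the members tested, 28 hold such a gene. ISM chains of the suffix subtype match the 3′ part of an annotated chain of introns and lack introns before it. They can begin later in the gene or keep a first intron, as in Rpl3l below, and these forms were not separated. Their median share of reads was 1.84% in replicate 2 and 1.61% in replicate 1 for the 28 members. For the other 54 members it was 2.04% in replicate 2 and 2.26% in replicate 1. The single-exon Rpl39 models carry no such subtype and are not in these shares. High shares were also seen in members without such a gene, such as Rps21, with 45.7% in replicate 2 and 51.9% in replicate 1.

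Rpl5 was read mainly as a transcript annotated as a retained intron. Rpl5-204, with 3 exons and 1024 bases, held 663 reads (88.3%) in replicate 2 and 137 (81.5%) in replicate 1. The coding Rpl5-201, with 8 exons, had 65 reads in replicate 2 and 27 in replicate 1. Both counts leave out the reads placed on the copy Gm15500. Rpl5-204 was most of the 880 reads in replicate 2 and 201 in replicate 1 that members had in annotated retained-intron transcripts, 4.04% of their annotated reads in replicate 2 and 2.50% in replicate 1. Protein-coding transcripts held 95.2% in replicate 2 and 96.7% in replicate 1.

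Rpl3l kept its first intron in about the same share of reads in both libraries. This intron of 430 bases, which begins directly after the start codon, was kept in 153 reads (25.1%) in replicate 2 and 89 (24.6%) in replicate 1, and its chain of 9 exons was labelled ISM. The fully spliced Rpl3l-202 with 10 exons had 319 reads in replicate 2 and 220 in replicate 1. Other kept introns were the first of Rpl31 in 35 reads (34.3%) in replicate 2 and 8 (22.9%) in replicate 1, and the fourth of Rpl7 in 44 reads (16.4%) in replicate 2 and 12 (16.9%) in replicate 1. Of the complete Rpl3l chains outside the annotation, the 3 most read are given. The NIC chain had 14 reads in replicate 2 and 10 in replicate 1. An NNC chain with a donor 142 bases from the nearest annotated one had 14 reads in replicate 2 and 6 in replicate 1, and one with a donor 4 bases away had 8 in replicate 2 and 3 in replicate 1.

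Rps24, a small subunit protein mutated in some human Diamond-Blackfan anaemia, was led by a chain outside the annotation. The gene is known for alternative short exons near its stop codon. Of its complete chains, an NNC chain of 6 exons and 585 bases held 87 reads (81.3%) in replicate 2 and 44 (93.6%) in replicate 1. Its last exon but 1 has 36 bases, and the annotated exon at this place ends 18 bases earlier. Over all Rps24 chains the 36-base exon was in 174 of 197 reads (88.3%, 83.0 to 92.5) in replicate 2 and 81 of 85 (95.3%, 88.4 to 98.7) in replicate 1. The 18-base exon was in 17 reads (8.63%) in replicate 2 and 1 read (1.18%) in replicate 1, and the exon was skipped in 2 reads in replicate 2 and 0 in replicate 1, where 0 of 85 reads has an exact upper limit of 4.25%.

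The first 30 bases of this exon are shown, chr14:24494052-24494081 on the plus strand (GRCm38, read from the annotated Rps24-211 that spans it), with the bases beyond the annotated end in capitals. In the frame of Rps24-205 the exon adds a single codon and then a stop codon, so the 36-base and the 18-base forms share 393 coding bases and differ after the stop, and the form without the exon reaches its stop after 399 coding bases.
Rps24 exon: aaatgaaatacctagcagGTACTGCCATTG

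Rpl21 was the other member led by an unannotated chain, with 16 reads (55.2% of complete reads) in replicate 2 and 10 (58.8%) in replicate 1 and an acceptor 536 bases from the nearest annotated one. Most of the reads that match Rpl21 were on pseudogenes, as given above. Rpl7l1 had an NNC chain with 13 reads in replicate 2 and 9 in replicate 1, with a donor 5 bases from an annotated one. Acceptors 3 and 4 bases from annotated ones gave chains of Rplp2, with 10 reads in replicate 2 and 4 in replicate 1, and Rpl13, with 12 in replicate 2 and 3 in replicate 1. Rps14 had an NIC chain with 8 reads in replicate 2 and 1 in replicate 1. In all, 216 NIC or NNC chains were seen in 72 members. Of these, 25 were in both libraries and 166 had 1 read, whereas 162 of 211 annotated chains were in both.

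Most members used 1 chain. Among the 80 members with 20 or more complete reads, the leading chain held a median of 94.7% of them, more than 90% in 56 members and less than 50% in 2. Rpl31 was the most divided: Rpl31-201 had 33 reads in replicate 2 and 13 in replicate 1, Rpl31-203 had 35 in replicate 2 and 8 in replicate 1, and Rpl31-202 had 20 in replicate 2 and 7 in replicate 1. Rpl30-201 held 48.8% of the complete reads of both libraries, of which there were 32 in replicate 2 and 9 in replicate 1. The leading chain of Rpl22l1 held 61.4% in replicate 2 and 52.6% in replicate 1, and that of Rpl7l1 53.1% in replicate 2 and 65.9% in replicate 1.

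Isoform shares were compared in 46 members with enough reads, by Fisher's exact test for 2 chains or a permutation test for more, and 0 were called at an adjusted p under 0.05, against 2.12% of 1700 genes. The lowest adjusted p was 0.236 (permutation test), for Rpl41, where Rpl41-201 held 94.3% of complete reads in replicate 2 and 89.7% in replicate 1. An unadjusted p under 0.05 was found in 5 members: Rpl41, Rpl5, Rpl37a, Rpl14 and Rpl3. With a minimum of 50 reads 0 of 39 members were called, against 3.89% of genes, and with annotated models alone 0 of 42, against 2.56%. These tests do not show that shares were equal.

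**Figure D5:**
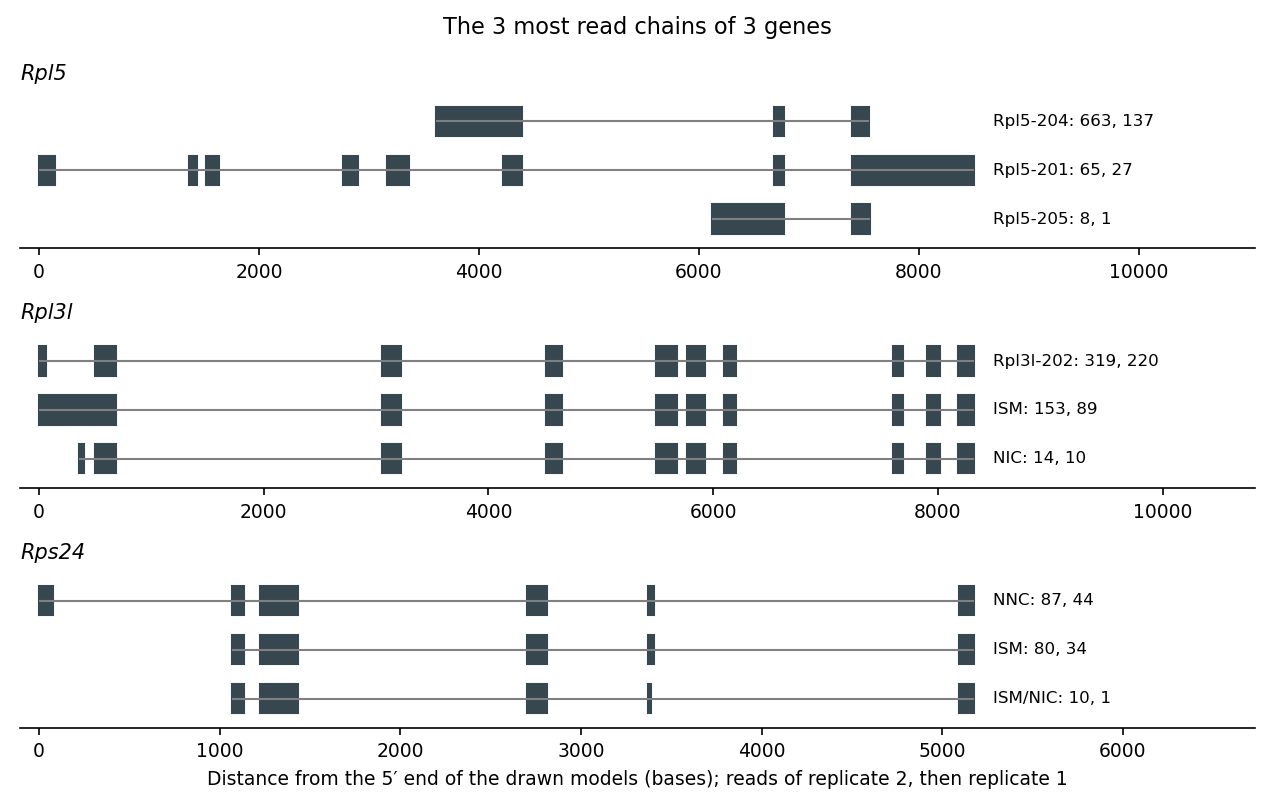
Exons (boxes) and introns (lines) of the 3 most read chains of Rpl5, Rpl3l and Rps24, drawn 5′ to 3′ by distance in bases from the 5′ end of the drawn models, with the annotated name or class and the reads of replicate 2 and then replicate 1. Rpl5-204 starts inside an intron of Rpl5-201, and the ISM chain of Rpl3l joins the first 2 exons.

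Gene structure at the start was shared by many members. In 22 of 81 members (27.2%) the first coding exon of the most read coding transcript held the start codon alone, against 131 of 7886 other protein-coding genes (1.66%). Rpl3, Rpl3l, Rpl4, Rpl5, Rpl35, Rpl39 and Rps24 were among the 22. A first coding exon of up to 12 coding bases was found in 42.0% of members and 4.46% of the others.

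Promoter windows of RefSeq (GRCm38.p6, 250 bases before to 50 after an annotated start) were matched by symbol for 64 members, in 76 windows. The letters CTTTCC, part of a typical TOP tract, occurred on either strand in 38 of the 76 member windows and 26.6% of all 32851 windows. Within 10 bases of the annotated start, on the gene's strand, they occurred in 11.8% of member windows and 0.837% of all. A run of 8 or more C or T bases within 10 bases of the start was found in 27.6% of member windows and 7.43% of all. A match is a description of the letters, and annotated starts were not compared with read ends.

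Sequences of 10 bases before to 10 after the start are shown for 3 members, with the longest run of C and T in capitals: Rpl35 with a long run, Rps24, and Rplp0 with a short one. They lie at chr2:39005122-39005141 (minus strand), chr14:24490668-24490687 (plus strand) and chr5:115559457-115559476 (plus strand) of GRCm38. Rps24 also had another window, with a longest run of 2 bases, and the window with the run of 9 was chosen for its length.
Rpl35: ccgCCCTTTCCTCTTTCTCT
Rps24: gctggggTCCTTCCTTgcgc
Rplp0: cgggTTTCgaggaccgcctg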

How the data were processed

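The authors' deposited tables hold raw read counts per transcript model, 1 library each, as their whole-number values show. Per the file headers and the notes deposited with them, models came from TALON on mm10 with the GENCODE M21 annotation. Platform, aligner and read filters: not given in the sources used here. Counts were summed per gene over models. CPM used all mouse reads, without ERCC spike-ins. Each log2 ratio divides replicate 2 by replicate 1 after adding 0.5 reads to both counts. Genes with 10 or more reads over both libraries entered a two-sided Fisher's exact test with Benjamini-Hochberg adjustment over all of them, which measures reads of 2 libraries and not the spread of a condition. Chains of models were matched by intron positions. Isoform tests used complete chains (Known, NIC or NNC) with 5 or more reads in genes with 20 or more per library, with 100000 Monte Carlo permutations where more than 2 chains were compared. Pseudogene matches used blastn (BLAST+ 2.17.0), coding alignments Biopython 1.88, and sequences the GENCODE M21 transcripts and RefSeq promoter windows. TMM and the test at a dispersion of 0.04 used edgeR 4.0.16, and size factors DESeq2 1.42.0, in R 4.3.3. The remaining analysis ran in Python 3.11.15 with scipy 1.17.1 and statsmodels 0.14.6. Gene and isoform tests were tested on simulated data.

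The members, gene lists and tests were chosen with earlier results of these data known. Named genes were the 8 most read of each subunit, the stalk genes, all paralog pairs, the 5 largest ratios each way, members with fewer than 10 reads, the 5 lowest leading-chain shares, members with differing isoforms, the 10 most read chains outside the annotation and the 4 most read genes of each pathway list. Members named for low reads, pseudogenes, ISM chains, retained introns or promoters were chosen after their values were seen. Alternatives changed the scaling, minimums, classes and lengths and left out each replicate. Of 25 listed assembly names 24 were symbols of the annotation. Results on some members and listed genes are not reported here.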

Additional observations from a re-analysis of the deposited data

How the results depend on the processing

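Against 69 members called higher in replicate 2, the count was between 65 and 74 under TMM and DESeq2 factors, other count minimums, complete chains and, chosen after seeing the data, added pseudogene reads. The count was 18 with the length trend removed and 5 with edgeR at a dispersion of 0.04, and complete chains gave 1 lower call, Rpl7l1. The median log2 ratio was 0.89, and 1.07 with TMM or DESeq2 factors and 0.25 without the length trend. With that trend removed 63 of the 82 members lay above 0, against 80 with it. Members called higher before that no longer lay above 0 included Rpl22 (-0.17), Rpl22l1 (-0.11), Rps27 (0.00), Rps27l (-0.17), Rps24 (-0.19) and Rps6 (-0.16). This list is not complete, and Rpl36 (-0.34) was another. The cause was not tested.

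The members' share of mouse reads was 0.882% to 1.80% when leaving out either replicate, and its mean was between 1.34% and 1.62% under the other alternatives, where the main value was 1.34%. The small subunit share was 30.3% to 30.9% when leaving out either replicate and 34.6% for complete chains. The Rpl3l share was 80.1% to 81.0% when leaving out either replicate, 73.5% for complete chains, 71.6% for annotated models and 73.0% with pseudogene reads added. The difference for Rpl22l1, 1.87 percentage points, was -2.61 for complete chains, and neither passed. Shares of Known (77.9% to 85.2%), ISM (12.8% to 20.4%), NNC (1.12% to 1.39%), NIC (0.286% to 0.318%) and Genomic models (0.279% to 0.286%) had these ranges when leaving out either replicate. With classes from splice sites alone NNC was 1.66%.

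No paired analysis was possible because there is 1 group. Calls between the libraries could not be made with a replicate left out. Members with few reads, such as Rpl17 and Rpl10, cannot show any but large differences. Reads of the CAST alleles were placed on a C57BL/6J reference, and the effect on counts was not tested.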
